A study of Mus musculus with 8 samples.

Results

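The genes described here are 10 mouse genes of the actin contractile apparatus and of smooth muscle: the smooth muscle actins Acta2 and Actg2, the smooth muscle myosin heavy chain Myh11 and regulatory light chain Myl9, the tropomyosins Tpm1 and Tpm2, the actin-binding proteins Tagln, Cnn1 and Cnn2, and the transcription factor Srf. They were chosen by symbol, with earlier results of these data known. All 10 were found among the 54838 gene rows and all 10 passed the filter on low counts. Their levels were measured in mouse embryonic fibroblasts, which are primary cells of embryonic connective tissue, in 8 libraries of polyadenylated RNA. The 4 groups of 2 libraries were n-Sen cells in alkaline medium, n-Sen cells in control medium, n-Sen cells and proliferating cells. No genetic change is named in the labels for any group.

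n-Sen is the labels' name for cells made senescent with nutlin3a, which keeps MDM2 from binding p53 and so stabilises p53. The cells were arrested in G2 by RO3306, which inhibits CDK1, and nutlin3a was then given together with RO3306 before 48 h of nutlin3a without it. They then spent 14 days in medium with 100 nM BI-2536, an inhibitor of the mitotic kinase PLK1 that was used to remove cells still dividing. The control and alkaline groups were n-Sen cells kept for a further 24 h in HEPES-buffered medium of adjusted pH, whose pH values the labels do not give. The design names intracellular acidification of senescent cells as the subject, and the alkaline medium is its intervention. Senescence cannot be told apart from the inhibitors and the 14 days in culture that go with it. The labels do not say that the 2 libraries of a group came from separate cultures, so the p-values reflect no more than how these samples vary, and that variation may be technical.

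In smooth muscle and in contractile fibroblasts, called myofibroblasts, actin filaments slide along myosin bundles to generate tension. Phosphorylation of the regulatory light chain switches the myosin on, and tropomyosin, calponin and transgelin line or bundle the actin filaments. The serum response factor SRF binds DNA elements called CArG boxes in the promoters of many of these genes, together with myocardin or with the actin-sensing MRTF coactivators. Alpha smooth muscle actin, the product of Acta2, is the usual marker of a myofibroblast.

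Because SRF is known to bind the promoters of many of these genes, their promoter sequences were read for CArG boxes. The RefSeq promoter table on GRCm38.p6 (mm10) gives 300 bases a gene, 250 before the start of transcription and 50 after it, and 7 of the 10 genes were matched in it, all but Actg2, Tagln and Myh11. A CArG box was searched as CC, then 6 bases that are each A or T, then GG. This pattern is its own reverse complement, so 1 search covers both strands. An exact box stood in the windows of 3 of the 7 genes, Srf, Myl9 and Cnn2, and in 1.63% of all 32851 windows of the table. With at most 1 mismatch a box stood in 5 of the 7, with Acta2 and Tpm1 added, and in 21.1% of all windows. No match was found in the windows of Cnn1 and Tpm2. The exact boxes are shown, with the boxes of Acta2, the gene of highest level per kilobase, and the capitals mark the 10 bases of each box.
Srf (chr17:46556182-46556254, minus strand): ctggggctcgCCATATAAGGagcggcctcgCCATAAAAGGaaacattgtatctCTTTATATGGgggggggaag
Myl9 (chr2:156775293-156775384, plus strand): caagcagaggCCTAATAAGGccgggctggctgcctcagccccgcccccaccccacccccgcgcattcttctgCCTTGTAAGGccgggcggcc
Cnn2 (chr10:79988534-79988563, plus strand): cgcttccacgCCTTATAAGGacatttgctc
Acta2, farther from the start (chr19:34255438-34255467, minus strand): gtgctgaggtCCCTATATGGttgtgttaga
Acta2, nearer the start (chr19:34255388-34255417, minus strand): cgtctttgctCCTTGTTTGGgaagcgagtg
The boxes of Srf began 82, 62 and 39 bases before its start, the first pair exact and the last with 1 mismatch. In Myl9 the exact box began 161 bases before the start and the one with 1 mismatch 99 bases before it. The exact box of Cnn2 began 56 bases before its start. Both Acta2 boxes, 84 and 34 bases before the RefSeq start, had 1 mismatch. GENCODE vM21, used for the exon lengths here, begins Acta2 farther upstream, and by it both stretches overlap an annotated exon of Acta2. A match is a description of the letters and no measurement of binding.

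Levels are given as CPM, which scales counts to a library size after TMM correction over all 8 libraries, and levels of different genes are compared per kilobase of exon unless stated otherwise. The exon length is that of all annotated exons of a gene merged, so these comparisons depend on the annotation too. Total counts ran from 40608517 to 54183060 a library. The proliferation antigen Mki67 averaged 8.13 ± 2.49 CPM in n-Sen and 419 ± 12.4 CPM in proliferating cells, and Cdkn1a, which encodes the p53 target p21, averaged 870 ± 0.0925 CPM in n-Sen and 212 ± 18.0 CPM in proliferating cells (SD, n = 2 each). Top2a and Lmnb1 also fell and Cdkn2a rose. The 12 fibroblast markers summed to between 37886 and 38700 CPM in n-Sen and between 17260 and 17590 CPM in proliferating cells, with none at 0. Fn1 alone stood at 20592 and 19915 CPM in n-Sen and at 5537 and 5493 CPM in proliferating cells. Of these 12, 10 rose and 2 fell, Pdgfra and Thy1. Pdgfra stood at 10.7 and 8.91 CPM in n-Sen and at 84.5 and 91.3 CPM in proliferating cells. In bulk RNA, fewer cells of a type and less RNA per cell cannot be told apart.

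Of the 10 genes, 8 were higher and 2 were lower in n-Sen than in proliferating cells in the quasi-likelihood test of edgeR, with p-values adjusted after Benjamini and Hochberg over all 19264 genes tested (adjusted p under 0.05). Of all genes tested, 67.1% passed, 34.0% as higher and 33.1% as lower, so that all 10 passing stands beside a background in which most genes passed. The groups did not overlap for any of the 10, as for 83.4% of all genes. The median log2 fold change was 0.62 over the 10 genes and 0.0015 over all genes tested. Myh11 rose most, and Srf and Cnn2 were the pair that fell. Below, fold changes are log2 of n-Sen over proliferating ± SE.

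**Figure D1:**
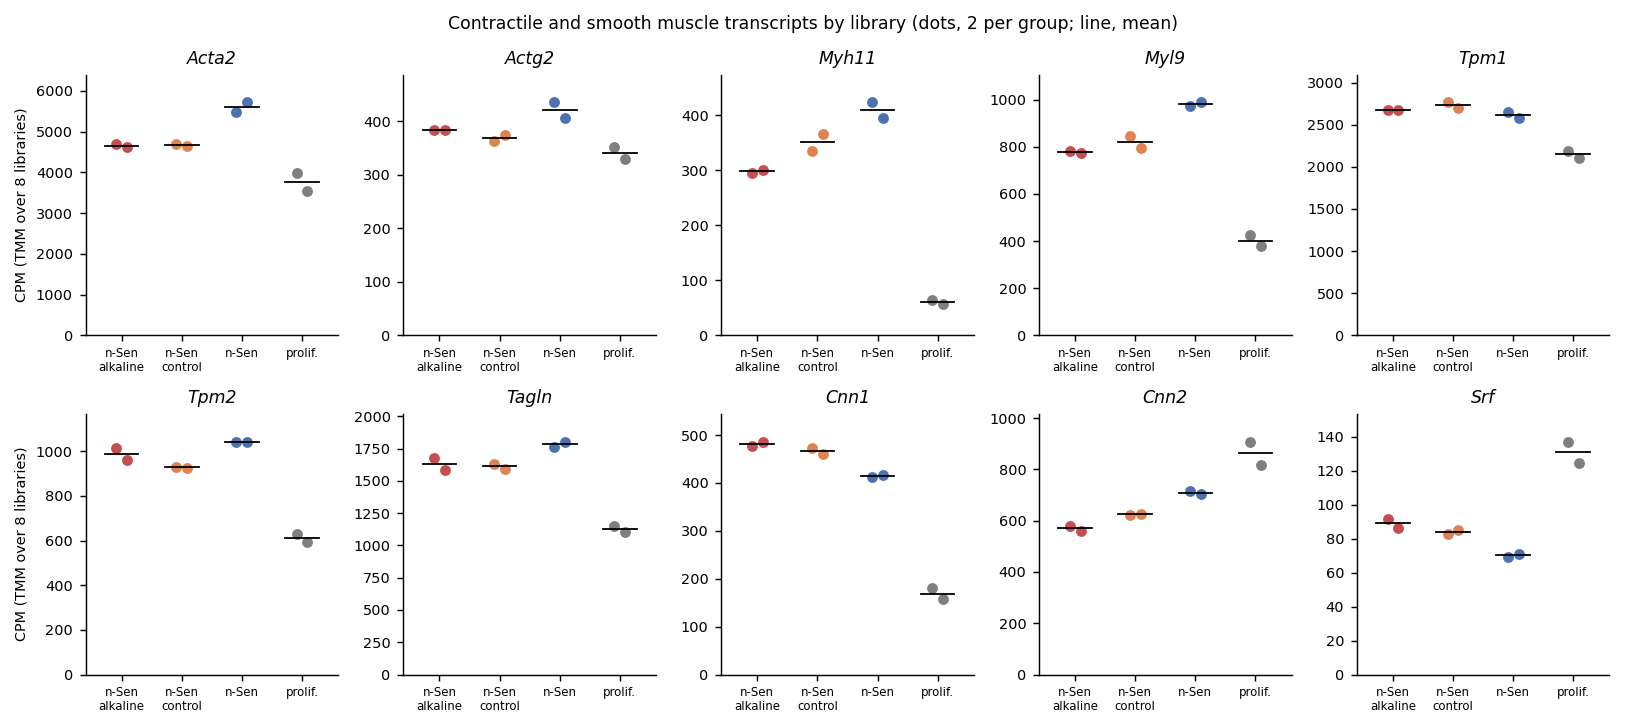
Level of each of the 10 genes in every library, in CPM on a linear axis with its own range in each panel, with the groups in the order n-Sen in alkaline medium, n-Sen in control medium, n-Sen and proliferating cells. Each point is 1 library and each bar the mean of a group. In Myh11 the proliferating libraries lie at 57.5 and 64.6 CPM and all others at 295 CPM or above, whereas in Srf and Cnn2 the proliferating libraries are the highest.

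Among the motor subunits, Myh11 encodes the heavy chain of smooth muscle myosin II (chromosome 16, 14194535 to 14291372, minus strand). It stood at 424 and 396 CPM in the n-Sen libraries and at 64.6 and 57.5 CPM in the proliferating ones. Both n-Sen libraries were far above both proliferating ones, a ratio of means of 6.71 and a log2 fold change of 2.75 ± 0.061 (adjusted p = 2.11e-16). Myl9, the regulatory light chain of smooth muscle and nonmuscle myosin II (chromosome 2, 156775420 to 156781658, plus strand), stood at 975 and 989 CPM in n-Sen and at 424 and 380 CPM in proliferating cells. Its groups did not overlap either, and it rose by 1.29 ± 0.051 (adjusted p = 3.52e-13).

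Both smooth muscle actins rose. Acta2 (chromosome 19, 34241090 to 34255590, minus strand) had the highest level per kilobase of the 10 genes in every library. Its level was 5477 and 5715 CPM in n-Sen and 3976 and 3550 CPM in proliferating cells. The proliferating libraries were thus already high, and the rise was 0.57 ± 0.046, a ratio of 1.49 (adjusted p = 4.89e-09). Actg2, the gamma actin of visceral smooth muscle (chromosome 6, 83512905 to 83536265, minus strand), stood at 435 and 405 CPM in n-Sen and at 352 and 329 CPM in proliferating cells. The groups lay apart, and Actg2 rose by 0.31 ± 0.051 (adjusted p = 4.09e-05). The longest coding frames of Acta2 and Actg2 were 84.2% identical. Those of Acta2 and the skeletal muscle actin Acta1 were 85.4% identical, and those of Acta2 and the cytoplasmic actin Actb 82.8%. Reads from stretches that these genes share may be divided among them by the counting, which was not tested.

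Tropomyosins are coiled-coil dimers that lie along actin filaments and control access of myosin. Tpm2 (chromosome 4, 43514711 to 43523765, minus strand) stood at 1043 and 1040 CPM in n-Sen and at 628 and 594 CPM in proliferating cells. The pairs were narrow and apart, and Tpm2 rose by 0.77 ± 0.044 (adjusted p = 5.41e-11). Tpm1 (chromosome 9, 67022590 to 67049406, minus strand) stood at 2646 and 2581 CPM in n-Sen and at 2193 and 2100 CPM in proliferating cells. It rose by 0.29 ± 0.039 (adjusted p = 4.95e-06), the smallest rise of the 8. Both genes make muscle and nonmuscle isoforms from alternative exons, which a count per gene does not separate.

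Calponins bind actin and slow the myosin motor. Cnn1, the calponin of differentiated smooth muscle (chromosome 9, 22099216 to 22109630, plus strand), stood at 412 and 417 CPM in n-Sen and at 181 and 157 CPM in proliferating cells. It rose by 1.30 ± 0.058, a ratio of 2.45 (adjusted p = 1.96e-12). Cnn2, the calponin found in many nonmuscle cells (chromosome 10, 79988584 to 79996062, plus strand), went the other way, with 715 and 702 CPM in n-Sen and 908 and 817 CPM in proliferating cells. It fell by 0.28 on the log2 scale ± 0.049 (adjusted p = 6.71e-05). The 2 calponins therefore moved in opposite directions, although their longest coding frames were 64.6% identical.

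Tagln encodes transgelin, or SM22, an actin-bundling protein of the calponin family (chromosome 9, 45929619 to 45936058, minus strand). It stood at 1765 and 1803 CPM in n-Sen and at 1147 and 1104 CPM in proliferating cells, a rise of 0.67 ± 0.041 (adjusted p = 1.68e-10). Its level is uncertain, because the gene Gm48529 lies across it on the opposite strand and 67.9% of the exonic bases of Tagln are shared with other genes. The count of Gm48529 was between 99.1% and 99.4% of that of Tagln in every library, so reads of the pair cannot be told apart in these tables.

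Srf, the transcription factor named above (chromosome 17, 46548329 to 46556175, minus strand), stood at 69.3 and 71.1 CPM in n-Sen and at 137 and 125 CPM in proliferating cells. Both n-Sen libraries were below both proliferating ones, a ratio of means of 0.537, and Srf fell by 0.89 on the log2 scale ± 0.061 (adjusted p = 5.28e-10). Of the 4 genes whose boxes are printed above, Acta2 and Myl9 rose while Srf and Cnn2 fell. Tpm1, whose window held 2 boxes with 1 mismatch each, rose too, as did Cnn1 and Tpm2, whose windows held none.

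**Figure D2:**
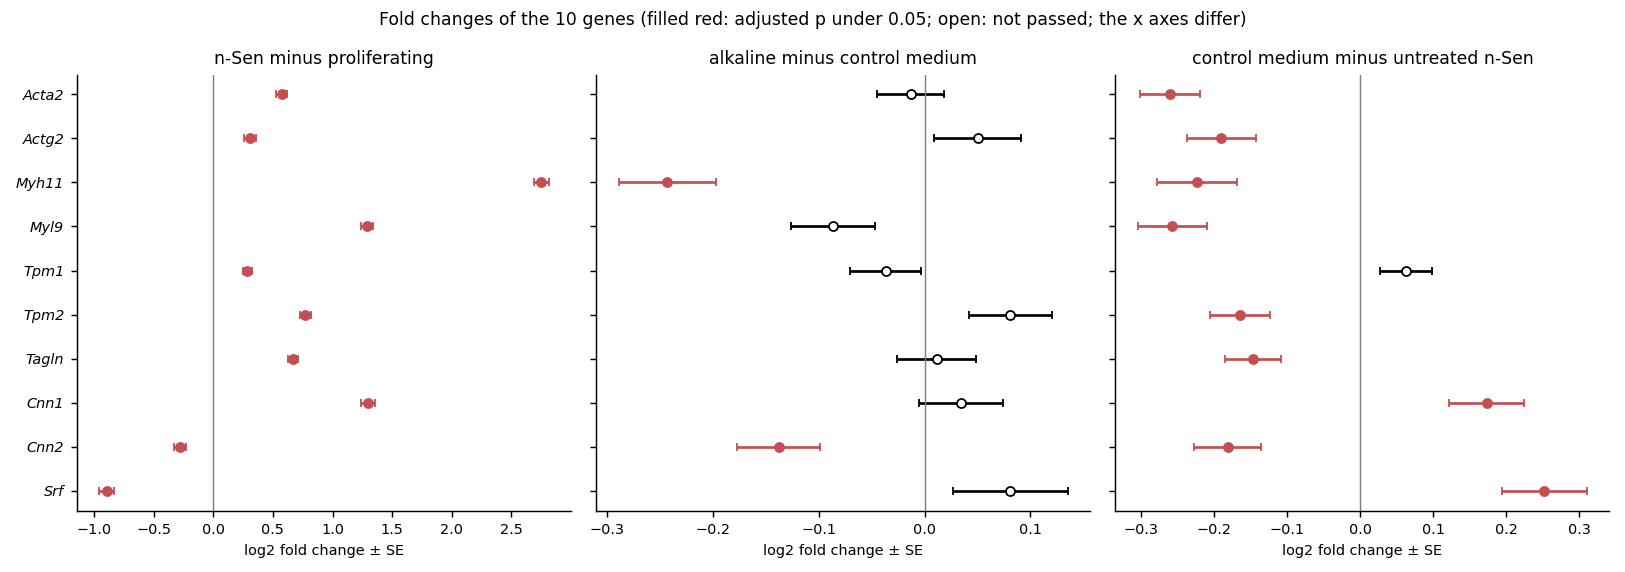
Log2 fold change ± SE of each of the 10 genes in 3 comparisons, n-Sen over proliferating cells, alkaline over control medium and control medium over n-Sen cells, with 2 libraries a group and axes of different range. Filled red points passed an adjusted p of 0.05. The left panel runs from -0.89 for Srf to 2.75 for Myh11, and in the middle panel Myh11 and Cnn2 passed, both below 0.

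The share of each gene within its protein family shows the same genes against their nonmuscle relatives. Shares are of the family's summed CPM per kilobase of exon and carry no test. Acta2 made up between 49.5% and 49.6% of actin in n-Sen and between 31.0% and 32.1% in proliferating cells, while Actb, the beta actin of every cell, made up 23.2% to 23.7% in n-Sen and 39.1% to 39.7% in proliferating cells. Acta2 was thus the leading actin in n-Sen and Actb the leading one in proliferating cells. Acta1, the actin of skeletal muscle, held 1.09% to 1.23% in n-Sen and 0.668% to 0.758% in proliferating cells, with the limit on shared reads given above. Myh11 made up 13.3% to 14.0% of class II myosin heavy chain in n-Sen and 2.43% to 2.80% in proliferating cells, and the nonmuscle heavy chain Myh9 led in both groups. Among calponins Cnn1 held 26.6% to 27.0% in n-Sen and 10.8% to 11.2% in proliferating cells. Cnn2 led in both groups, with 50.5% to 51.3% in n-Sen and 62.1% to 62.8% in proliferating cells. Tagln held 93.0% to 93.6% of transgelin in n-Sen and 62.3% to 63.7% in proliferating cells, with the uncertainty given above, and its nonmuscle relative Tagln2 held 6.30% to 6.90% in n-Sen and 36.3% to 37.7% in proliferating cells. Tpm2 held 27.3% to 27.4% of tropomyosin in n-Sen and 16.5% to 16.6% in proliferating cells, and Tpm4, a nonmuscle tropomyosin, held 37.2% to 37.6% in n-Sen and 49.4% in proliferating cells. Tpm1 held 30.5% to 31.1% in n-Sen and 26.0% to 26.1% in proliferating cells. These shares depend on the merged exon lengths, 6485 bases for Tpm1 and 2203 for Tpm4. Before division by length Tpm1 stood above Tpm4 in every library, in n-Sen at 2646 and 2581 CPM against 1078 and 1080 CPM.

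**Figure D3:**
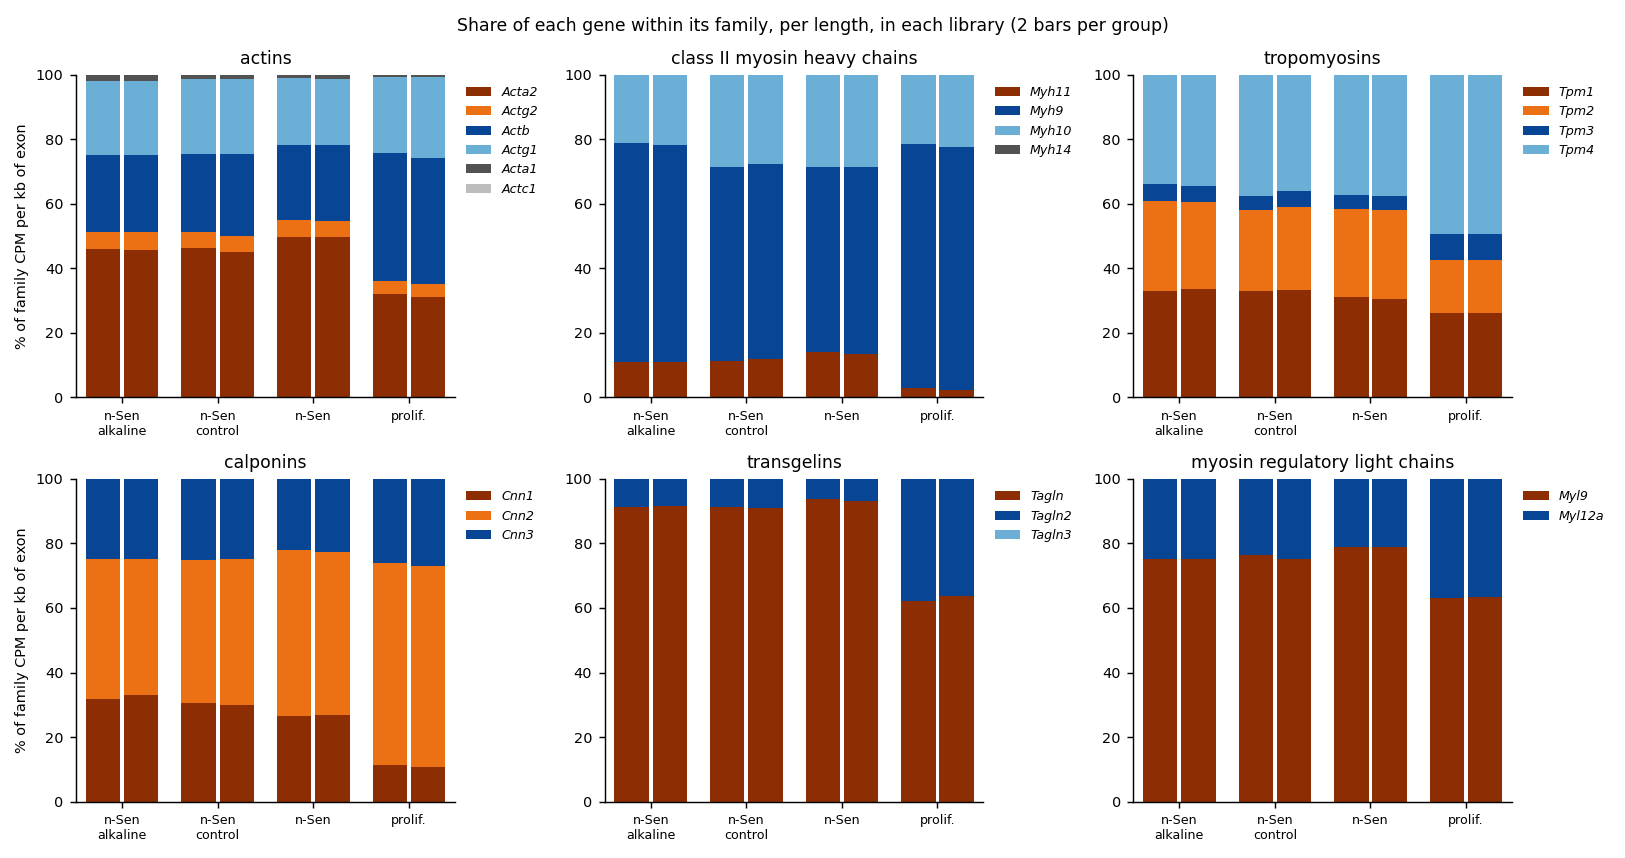
Share of each gene in its family, in percent of the family's summed CPM per kilobase of exon, as stacked bars of 1 library each for actins, class II myosin heavy chains, regulatory light chains, tropomyosins, calponins and transgelins. The groups run from n-Sen in alkaline medium at the left to proliferating cells at the right. Acta2 takes 49.5% to 49.6% of actin in n-Sen and 31.0% to 32.1% in proliferating cells, and Myh11 takes 13.3% to 14.0% of heavy chain in n-Sen and 2.43% to 2.80% in proliferating cells.

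The nonmuscle paralogs were tested as a list of 12 genes, of which 3 rose and 6 fell in n-Sen, with a median log2 fold change of -0.12. Tagln2 fell to 132 ± 11.0 CPM in n-Sen, against 693 ± 47.4 CPM in proliferating cells (-2.39 ± 0.062). Actb fell to 3225 ± 140 CPM in n-Sen, against 5741 ± 374 CPM in proliferating cells (-0.83 ± 0.045), and Tpm3 fell by 0.79 on the log2 scale. Actg1, Tpm4 and Cnn3 fell by less. The nonmuscle myosin heavy chain Myh10 rose to 1183 ± 18.8 CPM in n-Sen, against 706 ± 27.9 CPM in proliferating cells (0.75 ± 0.045), as did Myh14 and the light chain Myl12a. Myl12a shares 19.9% of its exonic bases with other genes and Cnn3 17.7%, and their counts may include reads of those genes. Myh9, the most abundant heavy chain, had a fold change of -0.018 ± 0.038 (adjusted p = 0.696).

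Of the 24 other smooth muscle genes tested, 19 rose and 5 fell in n-Sen, or 18 and 5 by DESeq2, with a median of 0.64. Myosin light chain kinase, Mylk, which phosphorylates the regulatory light chain, rose to 140 ± 1.78 CPM in n-Sen, against 31.3 ± 2.095 CPM in proliferating cells (2.17 ± 0.065). Itga8, an integrin subunit of contractile cells, rose by 2.48 ± 0.061. The actin-associated Synpo2 rose by 2.34 ± 0.083 and the intermediate filament protein gene Synm by 3.16 ± 0.137. The 5 that fell were Csrp2 (-0.80), Smtn (-0.57), Pdlim7 (-0.33), Tgfb1i1 (-0.27) and Flna (-0.23), which encode LIM-domain, smoothelin and filamin proteins that bind actin or focal adhesions. Smtn shares 17.2% of its exonic bases with other genes, and its count may include their reads.

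Of 12 cofactors and partners of SRF, 6 rose and 3 fell, with a median of 0.12. Phactr1, an actin-binding regulator of protein phosphatase 1, rose by 2.13 ± 0.211 and Scai, a repressor of MRTF, by 0.55 ± 0.097. Gata6, Elk4 and Tead1 fell, Gata6 by 0.68 on the log2 scale. The coactivators were looked at after their values were seen: Myocd, which encodes myocardin, rose to 6.69 ± 0.573 CPM in n-Sen, against 3.27 ± 0.877 CPM in proliferating cells (1.05 ± 0.192, adjusted p = 0.000122). Mrtfb rose by 0.24 ± 0.070 (adjusted p = 0.00545), and Mrtfa had a fold change of -0.062 ± 0.065 (adjusted p = 0.42). Of 18 MRTF-SRF target genes tested, 7 rose and 9 fell, with a median of -0.068. The integrin subunit gene Itgb1 (1.02 ± 0.038) and Vcl, which encodes vinculin (0.62 ± 0.044), rose, as did Pdlim5, Tuft1, Cap1, Lima1 and Fhl2, and Actb and the focal adhesion gene Zyx fell, Zyx to 339 ± 6.90 CPM in n-Sen, against 620 ± 56.4 CPM in proliferating cells (-0.87 ± 0.054). Vcl shares 25.5% of its exonic bases with other genes. Actb, Actg1, Myh9, Vcl, Flna, Tgfb1i1, Pdlim7 and Fhl2 stand in more than 1 of these lists, so the lists are not independent of each other.

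**Figure D4:**
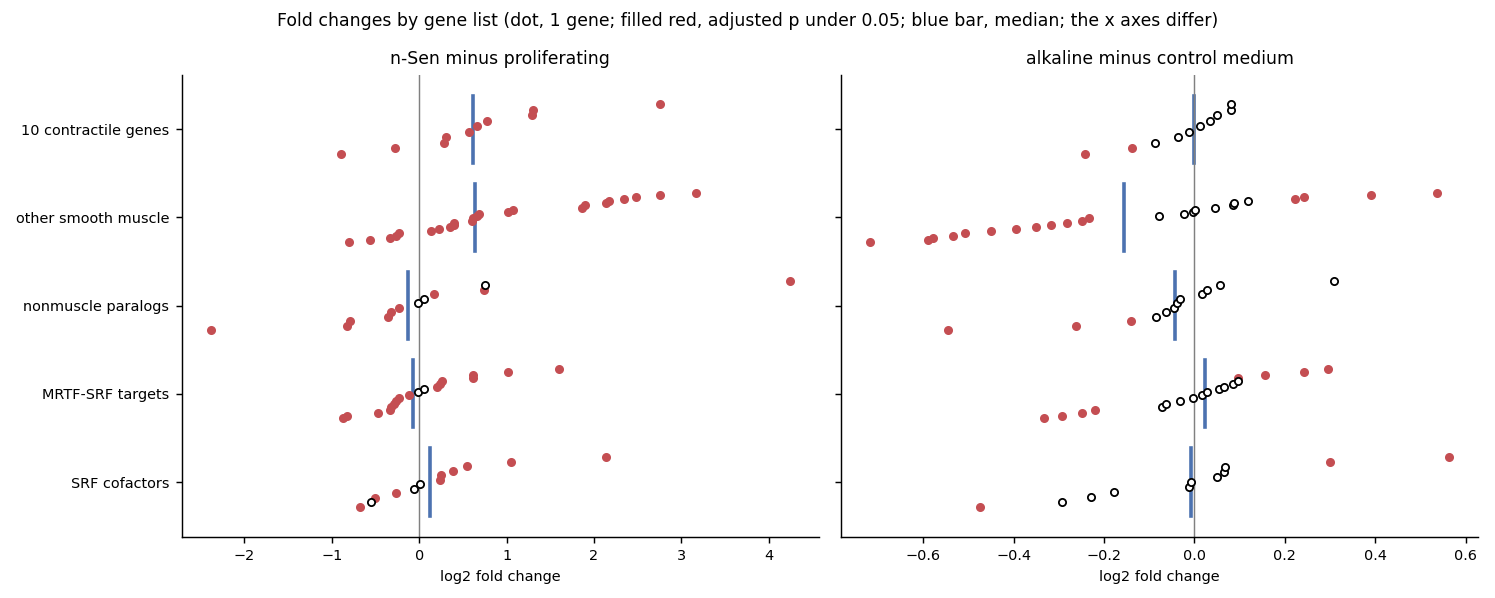
Log2 fold changes of the genes of 5 lists, the 10 genes described here, other smooth muscle genes, nonmuscle paralogs, MRTF-SRF targets and SRF cofactors, in n-Sen over proliferating cells and in alkaline over control medium. Each point is a gene and each blue bar the median of a list. In n-Sen the medians of the 10 genes and of the other smooth muscle genes lie at 0.62 and 0.64, and in alkaline medium at -0.00067 and -0.16.

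Markers of other cell types moved with this comparison. All 14 macrophage markers rose, or 13 by DESeq2, which did not call Fcgr1 (adjusted p = 0.0822). Their summed level was between 1124 and 1190 CPM in n-Sen and between 50.6 and 56.8 CPM in proliferating cells, with none at 0 in either group. Lyz2, C1qc, Adgre1 and C1qa had the smallest p of the 14, and Lyz2 alone stood at 712 and 751 CPM in n-Sen. Of 9 pericyte markers tested, 8 rose, with a sum of 1147 to 1156 CPM in n-Sen and 777 to 804 CPM in proliferating cells. Among them Notch3 rose by 3.97 ± 0.092 and Rgs5 by 3.01 ± 0.091, and Higd1b was at 0 in both groups. Of 10 striated muscle markers tested, 2 rose and 6 fell, or 1 and 4 by DESeq2, with a sum of 97.0 to 110 CPM in n-Sen and 87.8 to 102 CPM in proliferating cells. Most of that sum was Acta1, at 84.3 and 98.7 CPM in n-Sen and 65.8 and 53.6 CPM in proliferating cells. Myh3, Tnnc2, Myod1, Myog, Myf5 and Mymk were at 0 in n-Sen, and Myf5, Ckm and Mymk in proliferating cells. Of 9 epithelial and mesothelial markers tested, 8 fell and 1, Cdh1, rose, the last not by DESeq2 (adjusted p = 0.0645), with a sum of 10.7 to 11.0 CPM in n-Sen and 96.2 to 101 CPM in proliferating cells, and Epcam, Krt8 and Lrrn4 at 0 in n-Sen.  The part of these cell types in the levels of the 10 genes was not tested.

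The medium comparison asks what 24 h at alkaline pH changes in cells that are already senescent. Of the 10 genes, 2 were lower in alkaline than in control medium, Myh11 and Cnn2, and 8 did not pass. Of all 19129 genes tested 20.0% passed, 9.58% as higher and 10.4% as lower, so 2 of 10 equals the background share. None was higher by edgeR's quasi-likelihood test or by DESeq2, and 1, Tpm2, was higher at an unadjusted p under 0.05. The median log2 fold change was -0.00067 over the 10 genes and -0.0093 over all genes tested. The pairs of libraries did not overlap for 8 of the 10 genes, all but Acta2 and Tagln, as for 56.7% of all genes.

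Myh11 stood at 295 and 301 CPM in alkaline medium and at 336 and 366 CPM in control medium. Both alkaline libraries were lower, and Myh11 fell by 0.24 on the log2 scale ± 0.046, a ratio of 0.849 (adjusted p = 0.000373). Cnn2 stood at 581 and 561 CPM in alkaline medium and at 622 and 628 CPM in control medium, and fell by 0.14 on the log2 scale ± 0.039 (adjusted p = 0.0142). This call was lost without alkaline replicate 2 (-0.12, adjusted p = 0.162) and in the fit of all 8 libraries (-0.13, adjusted p = 0.0563). Myl9 stood at 781 and 775 CPM in alkaline medium and at 848 and 796 CPM in control medium, with a fold change of -0.086 ± 0.040 (adjusted p = 0.141). It passed only when control replicate 2 was left out (-0.13, adjusted p = 0.00502).

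The other genes had fold changes smaller in size than 0.09. Acta2 stood at 4693 and 4620 CPM in alkaline medium and at 4701 and 4648 CPM in control medium, so the pairs overlapped, with a fold change of -0.013 ± 0.032 (adjusted p = 0.845). Tagln overlapped too, at 1679 and 1588 CPM in alkaline medium and 1629 and 1595 CPM in control medium (0.012 ± 0.037, adjusted p = 0.885). The sign of this difference changed under 3 alternatives, to -0.030 at the lowest. Actg2 stood at 384 and 383 CPM in alkaline medium and at 362 and 375 CPM in control medium (0.050 ± 0.041, adjusted p = 0.462).
Cnn1 stood at 476 and 486 CPM in alkaline medium and at 473 and 461 CPM in control medium (0.034 ± 0.040, adjusted p = 0.636).  Tpm1 stood at 2677 and 2673 CPM in alkaline medium and at 2764 and 2696 CPM in control medium (-0.037 ± 0.033, adjusted p = 0.519). Tpm2 stood at 1017 and 960 CPM in alkaline medium and at 932 and 927 CPM in control medium (0.081 ± 0.039, adjusted p = 0.16). Srf stood at 91.6 and 86.2 CPM in alkaline medium and at 82.4 and 84.8 CPM in control medium (0.081 ± 0.054, adjusted p = 0.345). In these 4 genes both alkaline libraries lay on 1 side of both control libraries, by differences that did not pass the test.

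Of the 24 other smooth muscle genes, 4 rose and 12 fell in alkaline medium by edgeR, with a median of -0.16. By DESeq2 4 rose and 9 fell, and the falls of Ppp1r14a, Aoc3 and Ldb3 were not called (adjusted p = 0.0733, 0.103 and 0.08). The 4 that rose by DESeq2 did not include Kcnmb1 and so were not the same 4 as by edgeR. Des, which encodes the muscle intermediate filament desmin, fell to 68.6 ± 2.96 CPM in alkaline medium, against 112 ± 1.61 CPM in control medium (-0.72 ± 0.054, adjusted p = 7.69e-10). Itga8 (-0.51 ± 0.053) and Fhl1 (-0.40 ± 0.039), which encode an integrin subunit and a LIM-domain protein, also fell. The 4 that rose by edgeR were Csrp2 (0.54 ± 0.063), Kcnmb1 (0.39 ± 0.110, adjusted p = 0.0129, and 0.0612 by DESeq2), Pdlim7 (0.24 ± 0.046) and Smtn (0.22 ± 0.056). Csrp2, Pdlim7 and Smtn were among the 5 that were lower in n-Sen than in proliferating cells, and the comparisons share no library.

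Of the 12 nonmuscle paralogs 3 fell and none rose, by edgeR, by DESeq2 or at an unadjusted p under 0.05. Myh10 fell to 799 ± 29.1 CPM in alkaline medium, against 1161 ± 0.106 CPM in control medium (-0.55 ± 0.038, adjusted p = 2.71e-10), the light chain Myl6 fell by 0.26 on the log2 scale and Tpm4 by 0.14. Within the family of heavy chains Myh9 held 67.1% to 67.9% in alkaline medium and 59.9% to 60.2% in control medium, Myh10 held 21.0% to 21.8% in alkaline medium and 27.7% to 28.6% in control medium, and Myh11 held 10.9% to 11.0% in alkaline medium and 11.4% to 12.0% in control medium.

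Of 11 SRF cofactors tested, 2 rose and 1 fell. Mrtfa rose to 110 ± 3.18 CPM in alkaline medium, against 73.9 ± 4.72 CPM in control medium (0.56 ± 0.056, adjusted p = 7.03e-08). Elk3, an ETS-family partner of SRF, rose by 0.30 ± 0.047, and Myocd fell to 5.36 ± 0.544 CPM in alkaline medium, against 7.41 ± 0.637 CPM in control medium (-0.47 ± 0.149, adjusted p = 0.0261), a call that DESeq2 did not make (adjusted p = 0.14). Scai had a fold change of -0.18 ± 0.078 (adjusted p = 0.119). Of 18 MRTF-SRF targets 4 rose and 4 fell, with a median of 0.023. The 4 that fell were Filip1l, Lima1, Vcl and Pdlim5, by 0.33, 0.29, 0.25 and 0.22 on the log2 scale. Zyx, Itgb1 and Pdlim7 were among those that rose. Tuft1 rose by edgeR (0.30, adjusted p = 0.038), a call that DESeq2 did not make (adjusted p = 0.131).

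Marker lists also differed between the media. Of 14 macrophage markers 7 fell, with a sum of 1012 to 1015 CPM in alkaline medium and 1092 to 1155 CPM in control medium, and none at 0. Of 9 pericyte markers 5 fell, 3 by DESeq2, and 1, Pdgfrb, rose (0.41 ± 0.044). The pericyte sum was 1300 to 1345 CPM in alkaline medium and 1132 to 1285 CPM in control medium, with Higd1b at 0 in both. Of 12 fibroblast markers 7 fell and 2 rose, or 5 and 1 by DESeq2, with a sum of 39260 to 39976 CPM in alkaline medium and 35250 to 39104 CPM in control medium. A sum follows the most abundant genes of its list and not its count of rises and falls. Here Fn1 stood at 20310 and 21133 CPM in alkaline medium and Col1a1 at 8158 and 8199 CPM. In control medium Fn1 stood at 18721 and 21285 CPM and Col1a1 at 5699 and 6443 CPM. Of 7 striated markers 1 rose, Acta1 (0.31), and 1 fell, Tnnt2 (-0.76), with a sum of 143 to 146 CPM in alkaline medium and 120 to 122 CPM in control medium. Most of that sum was Acta1, at 133 and 136 CPM in alkaline medium and 107 and 109 CPM in control medium. Myh3, Myh8, Myod1, Myf5, Ckm and Mymk were at 0 in both media, with Myl1 also at 0 in alkaline medium and Actc1 and Tnnc2 in control medium. Of 7 epithelial markers 1, Msln, fell (adjusted p = 0.0241, and 0.13 by DESeq2), with a sum of 11.0 to 11.7 CPM in alkaline medium and 12.8 to 13.0 CPM in control medium. Epcam was at 0 in both media, and Krt8 and Lrrn4 in control medium. The part of these cell types in the levels of Myh11 and Cnn2 was not tested.

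The control medium can itself be set against n-Sen cells without it. These groups stand in different tables, so the medium, the further 24 h and any difference between the tables cannot be told apart. In a fit of all 8 libraries 2 of the 10 genes were higher and 7 lower in control medium than in n-Sen, and Tpm1 did not pass. Of all 20215 genes tested 11.1% passed, 6.18% as higher and 4.96% as lower. The median log2 fold change was -0.17 over the 10 genes and 0 over all genes. The groups did not overlap for any of the 10 genes, as for 52.0% of all genes.

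Acta2 fell by 0.26 on the log2 scale ± 0.041 (adjusted p = 0.000157) and Myl9 by 0.26 ± 0.047 (adjusted p = 0.000782). Acta2 stood at 4701 and 4648 CPM in control medium and at 5477 and 5715 CPM in n-Sen, and Myl9 at 848 and 796 CPM in control medium and at 975 and 989 CPM in n-Sen. In both genes the libraries of the 2 groups were apart, and both passed whichever library was left out, with adjusted p at most 0.00641 and 0.0244. The 7 other calls were all lost without n-Sen replicate 1 (adjusted p between 0.077 and 0.233). Those of Tagln, Cnn1, Cnn2 and Tpm2 were also lost without n-Sen replicate 2, those of Actg2, Cnn1, Cnn2, Tpm2 and Myh11 without control replicate 1, and those of Tagln, Cnn1, Cnn2, Tpm2 and Srf without control replicate 2. Actg2 (-0.19), Tagln (-0.15), Cnn2 (-0.18), Tpm2 (-0.16) and Myh11 (-0.22) fell with all libraries in the fit, Myh11 to 336 and 366 CPM in control medium, against 424 and 396 CPM in n-Sen. Cnn1 rose by 0.17 ± 0.051 (adjusted p = 0.0325), with 473 and 461 CPM in control medium and 412 and 417 CPM in n-Sen. Srf rose by 0.25 ± 0.058 (adjusted p = 0.00591), with 82.4 and 84.8 CPM in control medium and 69.3 and 71.1 CPM in n-Sen. Tpm1 had a fold change of 0.063 ± 0.035 (adjusted p = 0.311).

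Among the other smooth muscle genes 3 of 24 rose in control medium over n-Sen, among them Vcl (0.22) and Des (0.26), and 6 fell, led by Nexn (-0.44), Mylk (-0.30) and Synpo2 (-0.35), with a median of -0.0092. Of the 12 nonmuscle paralogs 2 rose, Tagln2 (0.30) and Cnn3 (0.16). Of 12 SRF cofactors 2 rose, Elk4 (0.44) and Elk3 (0.16), and 3 fell, Tead1, Fhl2 and Mrtfb. Of 18 MRTF-SRF targets 4 rose, led by Mical2 (0.34), and 3 fell, Lima1, Fhl2 and Cap1.

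Across all 4 groups, the proliferating cells had the lowest level of Acta2, Actg2, Tagln, Cnn1, Myl9, Tpm1, Tpm2 and Myh11 and the highest of Cnn2 and Srf, each apart from its neighbour in the order by an adjusted p under 0.05 in the fit of all 8 libraries. Over all genes, 67.1% passed in n-Sen against proliferating cells, so such a separation was common. Between control medium and n-Sen 11.1% passed, and between the media 20.0%. The first and last of these shares are from fits of 1 table each. No share over all genes is given here for the media against proliferating cells. Myh11 was the only one of the 10 in which every neighbouring pair of groups differed, with n-Sen highest, then control medium, then alkaline medium. Its step from n-Sen to control medium was lost when some single libraries were left out, as given above. Every step between the media and n-Sen or proliferating cells lies between the tables, so a difference between the tables cannot be told apart from it. For Acta2, Actg2, Tagln and Myl9 n-Sen was highest, and the alkaline and control media did not differ beyond their spread (adjusted p = 0.958, 0.485, 0.819 and 0.304, in this order). For Cnn1 the alkaline and control media were highest and did not differ from each other (adjusted p = 0.677), with n-Sen below them. Cnn2 was lowest in alkaline medium, where it did not differ from control medium in this fit. For Tpm1 and Tpm2 no neighbouring pair among the 3 senescent groups differed. For Srf the media lay between proliferating cells and n-Sen and did not differ from each other (adjusted p = 0.358).

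Per kilobase of exon, the order of the genes within a library was led by Acta2, at 2494 and 2602 CPM per kilobase in n-Sen and 1811 and 1617 in proliferating cells. Tagln followed, at 888 and 907 in n-Sen and 577 and 555 in proliferating cells, and Myl9 came after it in n-Sen, at 839 and 851. In proliferating cells Cnn2, at 369 and 332, Myl9, at 365 and 327, and Tpm1, at 338 and 324, lay close together after Tagln. The merged exon length was 6485 bases for Tpm1, 1988 for Tagln and 1162 for Myl9, and the order depends on it. In CPM, before division by length, Tpm1 stood above Tagln in every library. The level of Tagln has the uncertainty given above. Myh11 was at 55.7 and 52.1 CPM per kilobase in n-Sen and at 8.50 and 7.57 in proliferating cells, and Srf at 23.9 and 24.6 in n-Sen and 47.3 and 43.1 in proliferating cells. Srf was thus the lowest of the 10 in the senescent groups and Myh11 the lowest in proliferating cells. The 10 genes together summed to between 13961 and 14120 CPM in n-Sen and between 9214 and 10010 CPM in proliferating cells. In the media they summed to between 12434 and 12674 CPM in alkaline medium and between 12577 and 12750 CPM in control medium.

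The genes whose pattern over the 8 libraries was most like that of Acta2, Tagln and Srf were ranked by the root mean square difference of centred log2(CPM + 0.1) among 9735 genes of at least 10 CPM on average. For Acta2 they were Pofut1, at a difference of 0.0318, and Rsu1, Parp3, 0610012G03Rik and Megf9, at up to 0.0493. For Tagln the nearest was Gm48529, the overlapping gene, at 0.00164, then Romo1, Pex19, Wdr91 and 4930473A02Rik, at up to 0.0362. For Srf they were Nmd3 at 0.0394, Zyx at 0.0398, Clic1, Ccdc86 and Polg at 0.052. Zyx is also among the MRTF-SRF targets listed above, of which 7 rose and 9 fell in n-Sen. The ranking describes likeness over these libraries and was not tested.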

How the data were processed

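Strand-marked (dUTP) libraries of polyadenylated RNA were made from mouse embryonic fibroblasts, per the labels' protocols. HISAT2 2.1.0 and fastp 0.23.2 were among the tools, and so were DESeq2 1.34.0 and featureCounts (Subread 2.0.2), per the submitters' processing notes, which also name mm10. Which annotation release was counted, and with which strand setting, is not given in the sources used here. The authors deposited expected counts, which are estimated and can be fractional, in 2 tables of 54838 gene rows, one with n-Sen and proliferating libraries and one with the media, and these were rounded before testing. Of the values of the 10 genes, 38 of 80 were fractional.

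Symbols, exon lengths and overlaps came from GENCODE vM21. In R 4.3.3, edgeR 4.0.16 was used for the filter (filterByExpr), the TMM scaling and the quasi-likelihood test, and p-values were adjusted over all genes tested by the Benjamini-Hochberg method, with a threshold of 0.05. CPM is the count scaled to the TMM-corrected library size. Each table was fitted on its own, and control medium against n-Sen and the order of groups in 1 fit of all 8 libraries. The SE is the log2 fold change divided by the square root of F. The procedure was tested on simulated data. Within groups the chi-square of counts was between 4.63 and 7.39 per degree of freedom, so no library repeats another. No columns of other samples were present (0).

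The 10 genes and the lists were chosen with earlier results of these data known. All 10 are named, and from the lists described up to 4 genes of smallest p in a comparison and the called genes that moved against the list's median, with markers of other cell types given mainly as sums. Some genes that this rule names, and 1 list, are not reported here. The symbols Mkl1, Mkl2 and Hop matched no row and Myl12b matched 2, and were left out. Alternatives were DESeq2 1.42.0, other scalings, no filter, a replicate block, a fit of all libraries and leaving out each library.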

Additional observations from a re-analysis of the deposited data

How the results depend on the processing

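For n-Sen against proliferating cells, every alternative kept the side and direction of all 10 genes, with 8 higher and 2 lower also when single libraries were left out. For alkaline against control medium, 1 of the 10 genes was lower in the fit of all 8 libraries, against 2 with the libraries of this table. Leaving out single libraries gave 1 to 3 lower and 0 higher, with 1 without alkaline replicate 2 and 3 without control replicate 2. For control medium against n-Sen, leaving out single libraries gave 731 to 1435 higher and 450 to 1196 lower genes over all genes, and 0 to 2 higher and 2 to 7 lower among the 10. An arm left with 1 library was assumed to vary like the other groups. The fold change of Tagln in alkaline against control medium, 0.012, was -0.0052 with total counts, -0.0022 without control replicate 2 and -0.030 without alkaline replicate 1. It ran from -0.030 to 0.049 as single libraries were left out and passed in none of these fits. No other fold change of the 10 genes changed sign under the alternatives run.

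The replicate block gave 6455 higher and 6271 lower genes in n-Sen, 2056 and 2254 in alkaline medium and 1168 and 910 in control medium against n-Sen, against 6553 and 6377, 1833 and 1995, and 1250 and 1003 without it, and the same counts among the 10 genes. Deviations of same-numbered libraries correlated at -0.0142, -0.00709 and -0.00308 over 20215 genes, and with 2 pairs the numbers are not taken to pair the samples. DESeq2 gave 8 and 2, 0 and 2, and 2 and 7 of the 10 genes higher and lower in the 3 comparisons. Total counts without scaling factors moved the median of all genes by less than 0.1. A summed count of Tagln and Gm48529 was added after seeing the data. Because these counts are near copies, it tests nothing further. The limits are 2 libraries a group, cultures of unstated independence and counts whose strand setting is not given.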
